A study of Mus musculus with 4 samples.

Results

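Dividing pre-neutrophils were taken as granulocyte precursors with RNA of both cell cycle and secondary granule genes. Barcodes with at least 200 genes and under 10% mitochondrial UMIs (unique molecular identifiers, each a counted RNA molecule) were members when Camp, Ngp and Ltf together took at least 100 of every 10000 UMIs, Mki67 and Top2a together had at least 2 UMIs, and Elane, Mpo, Prtn3 and Ctsg together had under 20. Members were thus chosen by the measured counts of these 9 genes, whose levels describe the choice and support nothing. The rule found 1554 members among 33698 kept cells, with 502 in adenosine 1, 478 in adenosine 2, 525 in control 1 and 49 in control 2. The cells came from tibial fracture calluses of 20-month-old male C57BL/6J mice, 2 libraries after an adenosine-containing microgel and 2 after a control microgel without it, all taken 7 days after treatment. Every sample name calls the material callus while the tissue label reads bone marrow. All 4 suspensions went through red cell lysis and a sort for viable, propidium iodide-negative cells before droplet 3′ RNA sequencing. No label ties a library to an animal, so the p-values speak only of the spread from library to library, which may be technical. Values run in the order adenosine 1, adenosine 2, control 1, control 2 unless the libraries are named.

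Neutrophils form in marrow from granulocyte-monocyte progenitors. Promyelocytes pack proteases such as Elane (neutrophil elastase), Mpo (myeloperoxidase), Prtn3 (proteinase 3) and Ctsg (cathepsin G) into primary granules. The next stage, the myelocyte or pre-neutrophil, is the last that divides. Under the transcription factor C/EBPε (Cebpe) it makes secondary granule proteins, among them Camp (the cathelicidin precursor), Ngp (neutrophilic granule protein) and Ltf (lactoferrin), before cells leave the cycle and take on gelatinase granules and chemokine receptors. Mki67 (the Ki-67 antigen) and Top2a (DNA topoisomerase II alpha) are most abundant in G2 and M phase.

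The promoters of the 5 genes that admit a cell show the letters in front of both programs the members join. Sequences are from RefSeq on build GRCm38.p6 (mm10), in windows of 300 bases. For Camp, Ngp and Ltf these run from 250 bases before to 50 bases after the listed gene start. For Mki67 and Top2a, with listed gene starts at chr7:135716450 and chr11:99024199, the window sits differently around that start. For the granule genes, capitals mark matches to TTNCNNAA or its reverse complement TTNNGNAA, a loose form of the C/EBP site. Camp lies at chr9:109849407-109849706 on the minus strand, Ngp at chr9:110419558-110419857 on the plus strand and Ltf at chr9:111019042-111019341 on the plus strand.
Camp: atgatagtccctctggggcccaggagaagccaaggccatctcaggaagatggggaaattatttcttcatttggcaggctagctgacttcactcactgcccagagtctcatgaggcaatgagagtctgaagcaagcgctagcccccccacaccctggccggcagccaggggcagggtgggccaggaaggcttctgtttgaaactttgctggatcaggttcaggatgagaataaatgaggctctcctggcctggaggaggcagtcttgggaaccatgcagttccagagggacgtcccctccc
Ngp: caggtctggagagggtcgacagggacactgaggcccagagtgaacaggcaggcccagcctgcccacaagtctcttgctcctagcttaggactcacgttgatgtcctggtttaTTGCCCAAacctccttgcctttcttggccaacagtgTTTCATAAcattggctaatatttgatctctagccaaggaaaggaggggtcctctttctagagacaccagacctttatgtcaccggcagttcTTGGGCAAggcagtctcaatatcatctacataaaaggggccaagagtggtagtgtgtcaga
Ltf: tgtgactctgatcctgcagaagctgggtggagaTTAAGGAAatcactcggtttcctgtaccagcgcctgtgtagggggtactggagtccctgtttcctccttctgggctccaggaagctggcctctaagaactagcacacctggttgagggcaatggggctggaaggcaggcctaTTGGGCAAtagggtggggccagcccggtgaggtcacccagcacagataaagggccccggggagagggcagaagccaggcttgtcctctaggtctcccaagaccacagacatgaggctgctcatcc
Ngp held 3 matches and Ltf 2, and Camp held 0 in this window. Of 27025 promoters of this length, 40.7% held at least 1 such match. The 3 genes sit within 1195 kb of each other on chromosome 9. For the cell cycle genes, capitals mark CCAAT or its reverse complement ATTGG. Mki67 lies at chr7:135716330-135716629 and Top2a at chr11:99024140-99024439, both on the minus strand.
Mki67: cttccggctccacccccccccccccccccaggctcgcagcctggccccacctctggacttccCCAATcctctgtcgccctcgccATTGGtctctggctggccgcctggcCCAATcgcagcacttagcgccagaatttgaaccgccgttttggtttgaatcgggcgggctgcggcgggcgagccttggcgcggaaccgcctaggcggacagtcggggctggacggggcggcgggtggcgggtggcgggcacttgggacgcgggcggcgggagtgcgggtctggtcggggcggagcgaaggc
Top2a: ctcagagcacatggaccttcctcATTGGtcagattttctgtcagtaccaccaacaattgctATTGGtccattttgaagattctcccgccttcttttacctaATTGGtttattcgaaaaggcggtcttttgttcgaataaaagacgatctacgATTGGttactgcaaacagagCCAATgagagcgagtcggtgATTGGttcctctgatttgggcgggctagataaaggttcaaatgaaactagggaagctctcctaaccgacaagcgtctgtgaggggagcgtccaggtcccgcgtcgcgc
Mki67 held 3 CCAAT matches and Top2a 6, against a match in 37.9% of all promoters. Each of both also held 2 matches to TTTGAA (reverse complement TTCAAA), the letters of the cell cycle homology region, which 18.1% of promoters hold. These matches are letters in a window and not measured sites.

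In the 4 libraries, 6643 to 9427 cells were kept, with 32277757 to 68117846 UMIs per library before filtering. Members had a median of 8258, 10881.5, 9260 and 12818 UMIs and 2700.5, 2769.5, 2760 and 2897 genes, and their sums held 4492631, 5243534, 5147894 and 659377 UMIs. Control 2 stands apart: it held 4637 mature neutrophils and 244 granule-gene neutrophils, and its 49 members hold few of the members' UMIs. Results that rest on it are given with and without it. No member barcode was shared between libraries, while 11 to 27 kept barcodes were shared between pairs of libraries. Cells with 2 or more UMIs of lymphoid markers passed the granule threshold in 4.26%, 6.69%, 7.36% and 3.21% of cases, and they made up 1.20%, 9.83%, 1.90% and 2.04% of members. Their part in the results was not tested.

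The members were checked against their label with genes that the rule did not read. Cebpe had 427, 604, 435 and 631 CPM (the gene's share of the class's UMIs in a library, on the usual CPM scale) in members. In early primary-granule cells, which carried 20 or more UMIs of Elane, Mpo, Prtn3 and Ctsg, Cebpe had 112, 127, 102 and 174 CPM. In non-dividing granule-gene neutrophils, which passed the granule threshold with 0 Mki67 and Top2a UMIs, it had 243, 341, 235 and 396 CPM, and in mature neutrophils 28.3 to 37.5 CPM. Members were thus the highest of the 4 classes for this regulator in every library. The check held 8 pre-neutrophil genes: Cebpe, Lcn2, Chil3, Fcnb, Cd177, Mmp8, Pglyrp1 and Hp. All 8 were higher in members than in early cells in all 4 libraries, a contrast that the rule's thresholds partly set. Against non-dividing cells, 3 were higher and 5 lower in all 4 libraries, Mmp8 among the lower. Of 5 promyelocyte genes, 1 was higher and 3 were lower than in early cells in all 4 libraries. All of Cdk1, Ccnb2, Birc5, Tyms, Rrm2 and Ube2c, which act in DNA synthesis or mitosis, were higher in members than in non-dividing cells in all 4 libraries. Together they summed to 1422, 1709, 1559 and 1388 CPM in members, against 30.8, 54.1, 37.7 and 14.4 CPM in non-dividing cells. Members were chosen for Mki67 and Top2a UMIs and non-dividing cells for having 0, so this difference is largely set by the choice of cells. Mature neutrophil markers (Cxcr2, Il1b, Csf3r, Mmp9, Retnlg, Ccl6 and Stfa2l1) summed to 1365, 924, 1902 and 2816 CPM in members, against 37261 to 43544 CPM in mature neutrophils of the first 3 libraries and 15351 CPM in those of control 2.

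Of the rule's own genes, Camp had 45387, 61183, 56187 and 46144 CPM in members and 25146, 36910, 32737 and 32783 CPM in non-dividing cells, and Ltf had 5734, 6550, 5532 and 5193 CPM in members and 7615, 7468, 7540 and 6886 CPM in non-dividing cells. Members had a median of 755, 1007, 872 and 862 granule UMIs per 10000, 11, 10, 10 and 14 Mki67 and Top2a UMIs, and 1, 1, 1 and 0 primary granule UMIs. The median member thus lay well inside each threshold.

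Several genes were at their highest in the dividing class and so set it off on both sides. Fcnb, a ficolin stored in granules, had 832, 720, 747 and 713 CPM in members, against 301 to 548 CPM in early cells and 90.0 to 177 CPM in non-dividing cells. Chil3, a chitinase-like lectin, had 6330, 6529, 5686 and 4204 CPM in members, against 625 to 1025 CPM in early cells and 1495 to 2366 CPM in non-dividing cells. Groups of cells did not overlap for either gene. Ms4a3, a tetraspanner of granulocyte-monocyte progenitors, had 160, 178, 185 and 162 CPM in members, between 310 to 668 CPM in early cells and 15.7 to 39.5 CPM in non-dividing cells. Serpinb1a, an inhibitor of granule proteases, had 575, 676, 520 and 681 CPM in members and was higher there than in the other 3 classes in every library. Gfi1, a repressor needed for neutrophil fate, had 52.8, 33.4, 39.6 and 36.4 CPM in members, against 4.56 to 14.7 CPM in non-dividing cells, and overlapped with the 16.1 to 50.1 CPM of early cells.

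**Figure D1:**
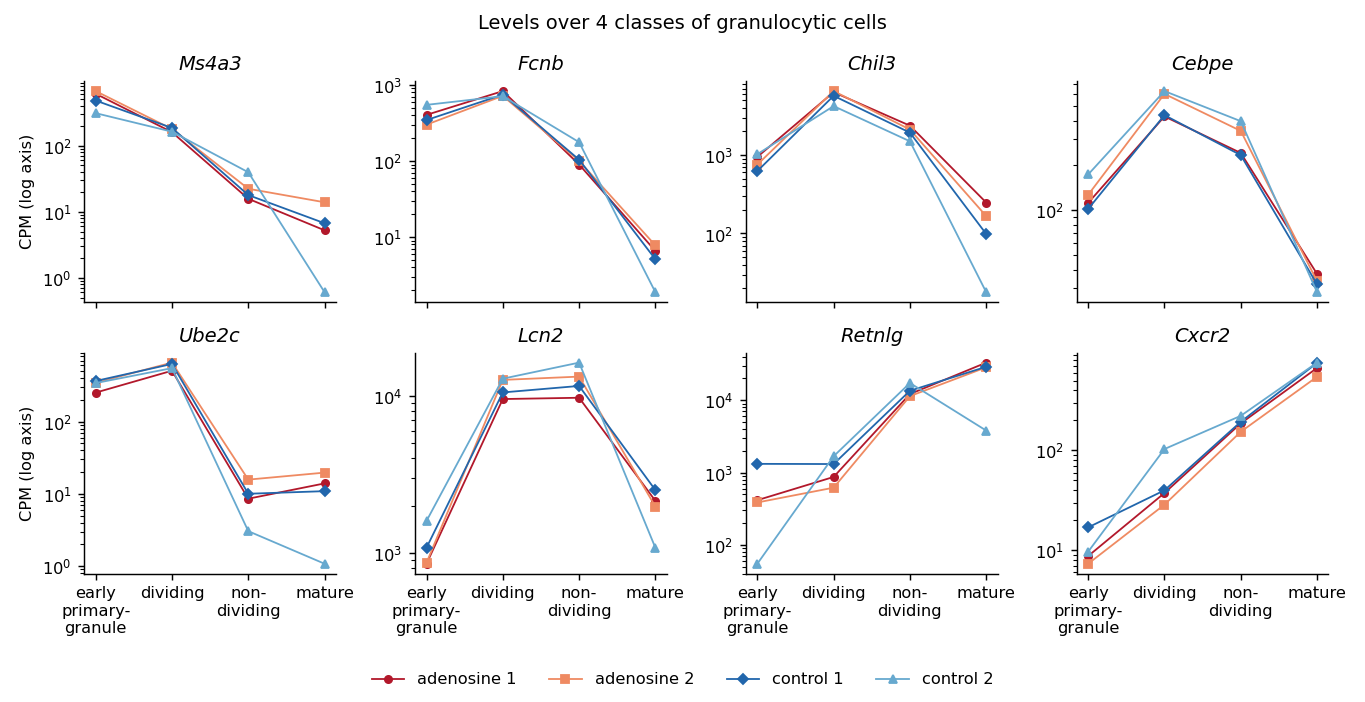
Levels in CPM (log axis) of 8 genes in early primary-granule cells, dividing pre-neutrophils, non-dividing granule-gene neutrophils and mature neutrophils, 1 line per library. Fcnb, Chil3, Cebpe and Ube2c peak in dividing cells, Ms4a3 is highest in early cells, and Retnlg and Cxcr2 are higher in non-dividing than in dividing cells in all 4 libraries.

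Against non-dividing cells, the rule itself used the contrast, so what follows is a description without a test. Of 7526 genes with at least 10 CPM in either class, 8.72% were higher by more than 1 log2 unit in all 4 libraries and 2.19% were lower by as much. The highest were mitotic and replication genes: Pclaf, a partner of the replication clamp, had 474, 542, 538 and 444 CPM in members, against 5.26, 10.52, 9.73 and 6.84 CPM in non-dividing cells. Ube2c, the ubiquitin-conjugating enzyme of the anaphase-promoting complex, had 507, 656, 629 and 551 CPM, against 8.55, 15.7, 10.0 and 3.04 CPM. Nusap1, Kif11, Hist1h1b, Stmn1, Hist1h2ap, Prc1, Birc5, Tpx2, Knl1 and Smc2 completed the 12 highest, with log2 ratios of at least 3.97 in every library (pseudocount 10 CPM). Hist1h2ap, a replication-dependent histone whose RNA mostly lacks a poly(A) tail, varied most between libraries in that group, with 486, 1159, 2324 and 349 CPM.

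The genes lowest in members included the collagenase and gelatinase of later granules. Mmp8 (neutrophil collagenase) had 111, 86.8, 141 and 109 CPM in members, against 2876, 2812, 2856 and 2032 CPM in non-dividing cells. Mmp9 (gelatinase B) had 145, 93.3, 188 and 136 CPM, against 2228, 1576, 1990 and 1448 CPM. Retnlg (resistin-like gamma) had 869, 618, 1311 and 1680 CPM, against 12169, 11395, 13520 and 17304 CPM. The 3 genes separated both classes in every library. In members all 3 overlapped with early cells, which had 52.9 to 104 CPM of Mmp8, 6.45 to 101 CPM of Mmp9 and 54.8 to 1318 CPM of Retnlg. Scrg1, Hacd4, Adam8, Fpr1 (a formyl peptide receptor), S100a6, Acvrl1, Cd55, Bmx and Gpr27 completed the 12 lowest. By contrast, Lcn2 (lipocalin 2) already had 9532, 12615, 10501 and 12844 CPM in members, against 9715, 13238, 11548 and 16245 CPM in non-dividing cells.

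Set against early primary-granule cells, members had more RNA of secondary granule genes. The rule partly sets this contrast, since members passed a granule threshold that early cells did not have to pass. It is a description without a test. Of 8590 genes compared, 2.55% were higher by more than 1 log2 unit in all 4 libraries and 8% lower. Inhba, which encodes a subunit of activin A, had 143, 124, 142 and 127 CPM in members, against 2.94, 3.17, 8.40 and 0 CPM in early cells. St3gal5, the synthase of the ganglioside GM3, had 297, 284, 282 and 227 CPM, against 11.2, 14.0, 25.3 and 19.3 CPM. Lcn2, Fmnl2, Itgb2l, Cd177, Syne1 and Cpa6 were the other genes of the 8 highest. Irf8, the transcription factor that steers progenitors to monocytes, was among the 8 lowest, with 19.4, 19.1, 14.4 and 3.03 CPM in members, against 328, 354, 302 and 255 CPM in early cells, together with Nme2, Gria3, Nrg1, Lgals1, Apba1, Ms4a6c and Ly6e. The early class also holds cells on the monocyte path: its monocyte-macrophage markers summed to 2099 to 2825 CPM, against 138 to 282 CPM in members, and the part of this in the contrast was not tested. Control 2 held 12 early cells.

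Gene lists placed the members between these neighbours. All 35 S phase genes compared were higher than in non-dividing cells in all 4 libraries (median log2 ratio 2.23), and so were all 47 G2 and M phase genes (median 3.09). Relative to early cells, 30 of 39 S phase genes were lower in all 4 libraries (median log2 ratio -0.59), whereas 21 of 47 G2 and M phase genes were higher and 3 lower (median 0.35). The rule asks for Mki67 and Top2a, so the balance of phases is partly set by it. Secondary granule genes were higher than in early cells for 16 of 18 members of the list (median 1.93) and lower than in non-dividing cells for 14 of 18 (median -0.21). The granule threshold, not asked of early cells, partly sets the difference from them. The median over all genes compared was 0.17 against non-dividing cells and -0.27 against early cells.

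RNA for protein synthesis was intermediate. Cytosolic ribosomal protein genes were lower than in early cells in all 37 of 37 cases (median log2 ratio -1.95) and higher than in non-dividing cells in 35 of 37 (median 0.97). Rpl23, of the large ribosomal subunit, had 1321, 1177, 1131 and 901 CPM in members, against 3563 to 4089 CPM in early cells and 532 to 636 CPM in non-dividing cells. Npm1 (nucleophosmin, a ribosome assembly factor) had 130, 153, 153 and 86.4 CPM in members, against 519 to 1359 CPM in early cells and 25.1 to 56.1 CPM in non-dividing cells. All 14 ribosome biogenesis genes were lower than in early cells in all 4 libraries (median log2 ratio -1.69). Nuclear oxidative phosphorylation genes were lower than in early cells for 30 of 30 and higher than in non-dividing cells for 24 of 30 (medians -0.94 and 0.50). Myc, a driver of ribosome production, had 4.01, 3.24, 3.497 and 1.52 CPM in members, against 52.2, 47.8, 34.03 and 6.45 CPM in early cells. CPM are shares of a class's RNA, so a larger share of one gene lowers those of the others. S100a8 and S100a9 alone took 85754 and 68420 CPM of members in adenosine 1 and 108628 and 134616 CPM in control 2.

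Genes that restrain the cycle differed in kind. Cdkn2d was the highest of the kinase inhibitor genes in members, with 187, 255, 205 and 256 CPM. Non-dividing cells had 121, 151, 138 and 193 CPM of it. Cdkn2c, which encodes the inhibitor p18, had 112, 111, 109 and 72.8 CPM in members, against 5.32 to 10.0 CPM in non-dividing cells. Cdkn3, a phosphatase made in mitosis, had 110, 166, 127 and 184 CPM, against 0.759 to 7.44 CPM. Cdkn1b, which encodes p27, had 79.5, 55.5, 65.5 and 81.9 CPM in members and 94.1, 63.7, 82.5 and 69.9 CPM in non-dividing cells, so it was lower in members of the first 3 libraries and higher in those of control 2. For the NADPH oxidase, all 6 genes were higher than in early cells in all 4 libraries: Cybb, its catalytic subunit, had 2604, 2170, 2152 and 1567 CPM in members, against 440 to 690 CPM in early cells. Itgam (the integrin subunit CD11b) had 632, 454, 541 and 513 CPM in members, against 80.7 to 310 CPM in early cells and 861 to 1293 CPM in non-dividing cells. Cxcr4, the receptor that holds neutrophils in marrow, had 292, 153, 202 and 194 CPM in members and 233 to 357 CPM in non-dividing cells.

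Within the members, most cells held more UMIs of the G2 and M list than of the S list, which are lists of different genes and length. After every member was thinned to 4000 UMIs (37, 22, 30 and 1 shallower cells left out), the median was 53, 50, 52 and 51 UMIs of the G2 and M list and 14, 9, 11 and 5.5 UMIs of the S list. The S list exceeded the G2 and M list in 12.7% of members in adenosine 1 (9.97 to 16.0, Wilson, 95%), 10.1% in adenosine 2 (7.65 to 13.2), 10.51% in control 1 (8.10 to 13.5) and 8.33% in control 2 (3.29 to 19.6). The unthinned shares were 10.8%, 10.3%, 9.52% and 8.16%. All 4 intervals overlap, and they cover counting error only.

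Members also differed along lactoferrin, the one of the 3 granule genes of the rule that was higher in non-dividing cells than in members in every library. Each library's members, without the 69 cells that carried 10 or more UMIs of another lineage's markers, were split into quartiles by Ltf. Those markers were the monocyte-macrophage, B cell, T or NK cell, erythroid, basophil or mast cell, megakaryocyte and mesenchymal lists. Dendritic and eosinophil markers did not count. The split uses a gene of the rule, whose limit on primary granule UMIs also caps Elane, and is a description. From the lowest to the highest quartile of Ltf, Elane had 1.87, 0.590, 0.370 and 0.308 UMIs per 10000 in adenosine 1. In adenosine 2 it had 1.87, 0.691, 0.325 and 0.290, in control 1 1.73, 0.833, 0.448 and 0.278, and in control 2 1.44, 0.144, 0.707 and 0.0606. Cells with the least lactoferrin RNA thus had the most elastase RNA in all 4 libraries. Ribosomal protein RNA had the same direction, at 324, 280, 259 and 206 UMIs per 10000 in the lowest quartile and 208, 197, 175 and 180 in the highest. Lcn2 ran the other way, at 84.5, 103, 89.9 and 118 UMIs per 10000 in the lowest quartile and 111, 149, 130 and 140 in the highest. Cd177, a surface protein of secondary granules, had 11.2, 9.31, 8.48 and 6.48 in the lowest and 15.7, 11.9, 13.4 and 8.12 in the highest. Each direction held in all 4 libraries, although control 2 has 12 cells in each quartile. Cycle genes had no direction common to all libraries. The G2 and M list had 125, 119, 130 and 126 UMIs per 10000 in the lowest quartile and 132, 127, 124 and 129 in the highest. The S list had 37.7, 29.1, 26.8 and 16.1 in the lowest and 41.0, 29.04, 34.5 and 21.6 in the highest, so it was higher in the highest quartile in 3 libraries and close to level in adenosine 2. Retnlg was higher in the lowest quartile (14.6 UMIs per 10000 over all libraries) than in the highest (5.95), unlike Lcn2. Without the 69 cells, the quartiles from lowest to highest Ltf held 38, 35, 14 and 17 cells with the highest doublet scores over all libraries. With all members kept, the lowest quartile held 56 of the 69 cells with other markers and 84 of those with the highest doublet scores, and Elane had 1.55, 0.654, 0.456 and 0.284 UMIs per 10000 over all libraries.

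**Figure D2:**
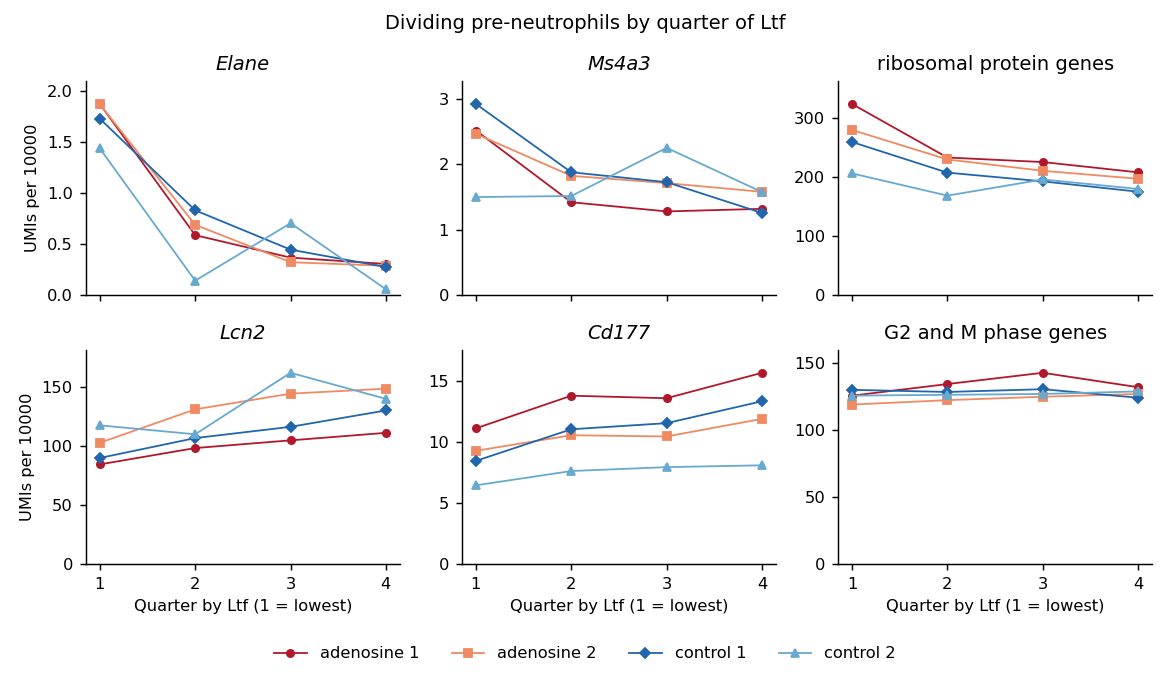
UMIs per 10000 in members split into quartiles by Ltf within each library (1 = lowest), 1 line per library, without 69 cells that carried markers of another lineage. Elane and ribosomal protein genes are lower in the highest quartile than in the lowest, Lcn2 and Cd177 are higher, and G2 and M phase genes stay within 119 to 143.

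The edges of the rule were examined without a test. The 112 members with exactly 2 Mki67 and Top2a UMIs had 64.9 UMIs per 10000 of the G2 and M list, against 35.4 in the 481 cells with 1 such UMI just outside. Fcnb stood at 7.09 and 2.95 and Retnlg at 25.3 and 66.8 UMIs per 10000 on these sides, with median depths of 6815 and 4967 UMIs. The 25 members with 100 to under 200 granule UMIs per 10000 had 0.459 Cebpe UMIs per 10000. The quartiles of all members by Ltf had 4.27 to 5.45, so these 25 lacked the Cebpe level of members as a whole. Of the 25, 16 carried 10 or more UMIs of another lineage. Just outside, 13 cells with 50 to under 100 had 0.469 Cebpe UMIs per 10000. The 84 members with 10 to 19 primary granule UMIs and the 48 cells with 20 to 29 just outside had 4.67 and 4.45 Cebpe UMIs per 10000.

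The share of dividing pre-neutrophils among all kept cells was 5.67% (95% Wilson interval 5.203 to 6.17) in adenosine 1, 5.45% (5.00 to 5.95) in adenosine 2, 5.57% (5.12 to 6.05) in control 1 and 0.738% (0.558 to 0.974) in control 2. Adenosine libraries averaged 5.56% ± 0.152 and control libraries 3.15% ± 3.42 (SD, n = 2 each), a difference that an exact permutation test over libraries (two-sided) put at p = 0.667, where 2 against 2 cannot go under 0.3333. Without control 2 the difference was -0.01 percentage points. A lower share of a cell type in a suspension cannot be told apart from a larger number of other cells.

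Among granule-gene neutrophils, the members' own developmental window, the share was 17.1% in adenosine 1 (15.8 to 18.6), 20.0% in adenosine 2 (18.5 to 21.7), 17.2% in control 1 (15.9 to 18.5) and 20.1% in control 2 (15.5 to 25.6). The means were 18.6% ± 2.03 for adenosine and 18.6% ± 2.07 for control (SD, n = 2 each; exact permutation test, two-sided, p = 0.667). Control 2, with the smallest share of all cells, had a share of this window within the range of the others' intervals. Thinned to 2000 UMIs per cell, the shares were 14.2%, 13.2%, 12.3% and 14.4%. Of all kept cells with 2 or more Mki67 and Top2a UMIs, members were 34.7%, 29.8%, 42.6% and 48.0%.

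**Figure D3:**
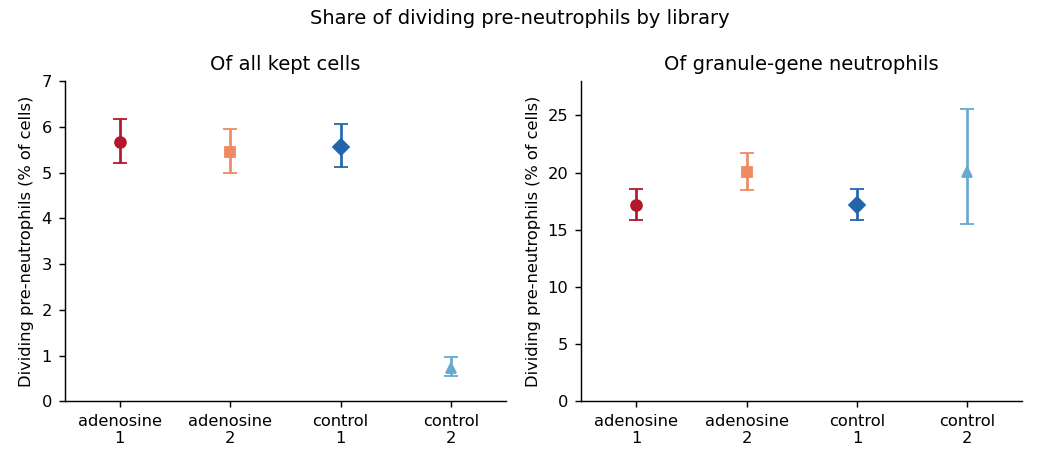
Dividing pre-neutrophils as a percent of all kept cells (left) and of granule-gene neutrophils (right) in each library; points are shares and bars 95% Wilson intervals. Control 2 lies at 0.738% of kept cells, and at 20.1% of granule-gene neutrophils next to 17.1% to 20.0% in the other libraries.

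Adenosine was compared with control in the members by summing UMIs per library and testing 10310 genes with edgeR's quasi-likelihood test. Hbb-bt, a beta globin gene, was the single gene past an adjusted p of 0.05 (0.0097% of genes tested), with 168 genes at an unadjusted p under 0.05. It had 89.0 and 38.9 CPM in the adenosine libraries, against 2.33 and 0 CPM in the control libraries (log2 fold change 4.93, SE 0.54, adjusted p = 0.0345, edgeR). Hba-a1, Hbb-bs and Hba-a2 came next among the higher genes, with log2 fold changes of 5.29 (SE 0.76), 5.52 (SE 0.97) and 6.24 (SE 1.20), and did not pass (adjusted p = 0.193, 0.600 and 0.684, edgeR). The globin genes are near-identical pairs whose reads may be split between copies. Their UMIs sat in single cells: 1 cell held 383 of 400 Hbb-bt UMIs in adenosine 1 and 1 cell held 203 of 204 in adenosine 2. Without the 69 cells that carried another lineage's markers (dendritic and eosinophil markers not counted), 0 of 9839 genes passed in edgeR. Of the 9839 genes, 163 had an unadjusted p under 0.05 in edgeR. DESeq2 called 4 genes in all members: Apoe, Ccl6, Hba-a1 and Hbb-bt.

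Some of the other markers were concentrated in the same way, and others were spread over cells. Of the 5 erythroid markers, which summed to 661 and 107 CPM in adenosine members and 12.04 and 6.07 CPM in control members, 1 cell held 95.2% of the UMIs in adenosine 1 and 96.4% in adenosine 2. Of the megakaryocyte markers Pf4 and Itga2b (3.56 and 0.381 CPM in adenosine, 17.7 and 118 CPM in control), 1 cell held 89.0% in control 1 and 96.2% in control 2. Of the 7 monocyte-macrophage markers (171 and 138 CPM in adenosine, 162 and 282 CPM in control), 1 cell held 88.7% of the UMIs in control 2. In adenosine 1, adenosine 2 and control 1, the cell with the most held 10.3%, 11.4% and 11.8%. B cell markers summed to 95.04 and 38.9 CPM in adenosine and 72.5 and 6.07 CPM in control. In each library 1 cell held 25% to 62.1% of their UMIs. T or NK cell markers summed to 42.5 and 145 and to 48.4 and 28.8 CPM, with 2.62% to 21.1% in 1 cell. Of these sums Nkg7, also listed as a primary granule gene, made up 40.1 and 78.2 and 43.7 and 25.8 CPM. Dendritic markers summed to 277 and 288 and to 304 and 296 CPM, with 3.51% to 12.3% in 1 cell. Of the 4 dendritic markers, Flt3, Siglech and Cd209a had 0 UMIs in at least 1 library, and Cst3 was seen in every library. Only 1 of the 4 averaged at least 10 CPM in members or non-dividing cells, so the sum rests mostly on 1 gene. Members with 10 or more dendritic marker UMIs numbered 8, 17, 18 and 4. Eosinophil markers stayed at or under 1.78 CPM with Epx at 0 throughout, basophil or mast cell markers at or under 10.9 CPM, and mesenchymal markers were 7.12 and 39.9 CPM in adenosine and 19.2 and 9.10 CPM in control. Members among the highest doublet scores were 46, 57, 58 and 2.

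**Figure D4:**
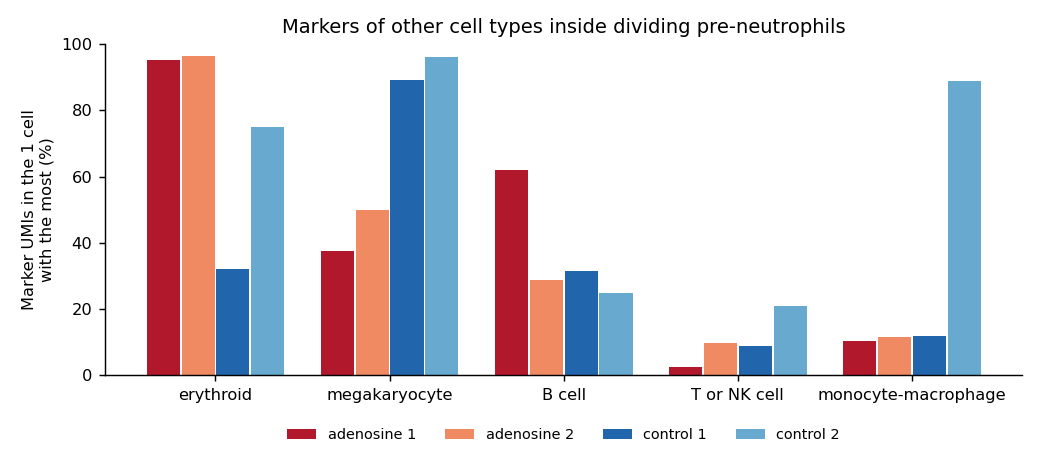
Percent of the summed UMIs of 5 marker lists that lay in the 1 member with the most, by library (bars from 0). Over 95% of erythroid UMIs in both adenosine libraries and at least 89.0% of megakaryocyte UMIs in both control libraries were in 1 cell.

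None of the other named genes passed the threshold in edgeR. H2-Q7, a nonclassical MHC class I gene of a family with near-identical copies, had 10.0 and 235 CPM in adenosine and 12.6 and 1.52 CPM in control (log2 fold change 3.77, SE 1.21). It was high in adenosine 2 alone, where 404 of 478 members had a UMI. Tfrc, the transferrin receptor, had 75.01 and 29.4 CPM in adenosine and 24.5 and 18.2 CPM in control (log2 fold change 1.11, SE 0.37), with UMIs in 210, 104, 96 and 9 members. Its fold change was 0.52 without adenosine 1, and 1 cell held 28 of the 154 UMIs in adenosine 2.

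Ldhc, the germ cell lactate dehydrogenase subunit, was lower, with 12.7 and 9.73 CPM in adenosine and 33.0 and 42.5 CPM in control (log2 fold change -1.79, SE 0.32). In non-dividing cells its change was -1.99, and the test of the difference between both classes of cells did not pass. Apoe (apolipoprotein E) had 22.04 and 10.7 CPM in adenosine and 47.6 and 80.4 CPM in control (log2 fold change -2.04, SE 0.38). Its fold change was -1.57 without control 2, where 1 cell held 21 of its 53 UMIs, and 1 cell of adenosine 1 held 27 of 99. Ccl6, a chemokine of myeloid cells, had 66.6 and 55.5 CPM in adenosine and 132 and 259 CPM in control (log2 fold change -1.76, SE 0.36). This became -1.11 without control 2, where 1 cell held 52.6% of its UMIs. Il1b, the interleukin-1 beta gene, had 20.5 and 9.34 CPM in adenosine and 34.8 and 362 CPM in control. Its log2 fold change of -3.85 (SE 0.89) became -1.26 without control 2. Thbs1 (thrombospondin 1) had 8.68 and 1.53 CPM in adenosine and 22.3 and 161 CPM in control, and its -4.25 (SE 0.92) became -2.21.

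Among the gene lists, the S phase list was one-sided, with 38 of 39 genes higher in adenosine and a median log2 fold change of 0.32, where the median of all genes was 0.02. Pcna, the replication clamp, had 244 and 164 CPM in adenosine and 184 and 74.3 CPM in control (log2 fold change 0.54, SE 0.34). For 36 of the 39 genes control 2 was the lowest library, and without it the median was 0.13. Groups did not overlap for 11 of 39, all higher in adenosine, as was so for 10.9% of all genes tested (and for 7.73% in the lower direction). Of 37 cytosolic ribosomal protein genes, 36 were higher, with a median of 0.20 (0.16 without control 2), and groups did not overlap for 24, all higher, against 10.9% of all genes. Rps24 had 1651 and 1615 CPM in adenosine and 1533 and 1140 CPM in control. None of these genes passed the test, and for 34 of the 37 control 2 was lowest. The G2 and M list was even, with 24 genes higher and 24 lower (median 0.00).

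Granule genes showed no common direction. In the secondary granule list 9 genes were higher and 9 lower (median -0.01), and in the primary granule and promyelocyte list 7 and 9 (median -0.02). Lcn2 differed by -0.14 (SE 0.41) and Chil3 by 0.32 (SE 0.35) on the log2 scale. In the tertiary granule and mature neutrophil list 18 of 20 were lower (median -0.66). Control 2 had the highest value for 13 of the 20, and the median without that library was -0.19. Groups did not overlap for 6 of the 20 in the lower direction and 1 in the higher. Over all genes tested these shares were 7.73% and 10.9%. Retnlg had 869 and 618 CPM in adenosine and 1311 and 1680 CPM in control (log2 fold change -1.12, SE 0.31, unadjusted p = 0.00433 in edgeR). The transcription factors of granulopoiesis had 11 genes higher and 9 lower (median 0.09), and Cebpe differed by -0.10 (SE 0.36) on the same scale.

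Inflammatory genes depended on control 2. Of 15 tested cytokine and mediator genes, 13 were lower in adenosine, with a median log2 fold change of -3.11 that became 0.07 without control 2, where 12 of the 15 had their highest value. Groups did not overlap for 5 of the 15, all lower in adenosine, as was so for 7.73% of all genes tested. Cxcl2, a neutrophil chemoattractant, was not among these, with 6.23 and 0.191 CPM in adenosine and 4.08 and 696 CPM in control. For it control 1 lay within the adenosine values. In control 2, 215 and 111 of the 459 Cxcl2 UMIs lay in 2 cells, and 34 of 49 members had at least 1. Thinned to 4000 UMIs, 5.16%, 3.51%, 5.86% and 35.4% of members had 5 or more UMIs of the list. The unthinned shares were 27.5%, 37.2%, 29.7% and 81.6%. In the mature neutrophils of the same libraries Il1b had 859, 857, 1114 and 5971 CPM, and whether RNA from such cells adds to the members' counts was not tested.

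Interferon response genes depended on adenosine 2. Of 19 tested, 17 were higher in adenosine (median log2 fold change 0.93), and without adenosine 2 the median was -0.95. Irf1, an interferon-induced transcription factor, had 28.3 and 90.2 CPM in adenosine and 27.6 and 13.6 CPM in control. Adenosine 2 was the highest library for it. Unlike the globins, this signal was spread over cells: the member of adenosine 2 with the most UMIs of the list held 1.70% of them. Thinned to 4000 UMIs, 3.66%, 55.0%, 9.90% and 18.8% of members had 5 or more UMIs of the list, and unthinned 25.9%, 88.5%, 44.6% and 65.3%. In non-dividing cells Irf1 had 59.8 and 166 CPM in adenosine and 57.3 and 31.9 CPM in control, the same order of libraries. Adenosine 2 also held the most lymphoid-marked members, and the part of these in the result was not tested.

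**Figure D5:**
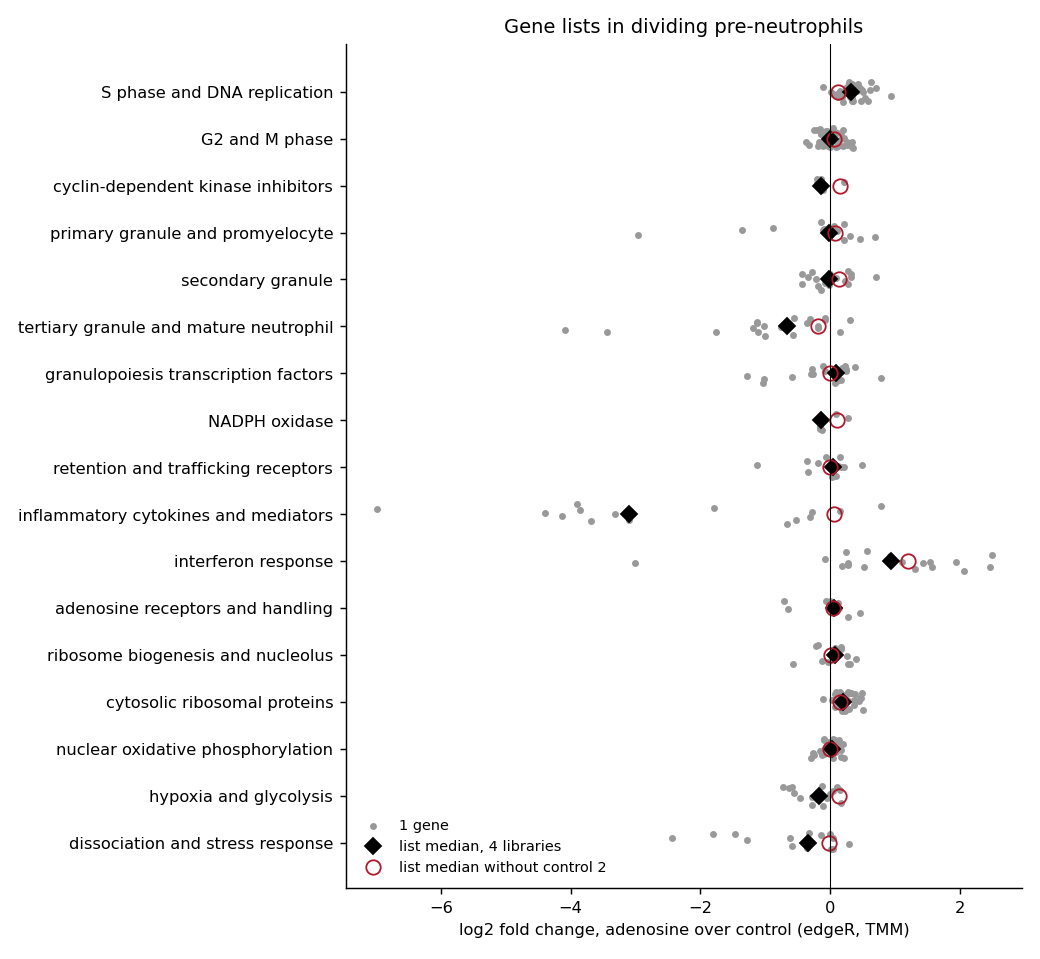
log2 fold change of adenosine over control (edgeR, TMM scaling) for each tested gene of 17 lists (grey points), with the list median over 4 libraries (black diamonds) and without control 2 (red circles). The inflammatory median lies at -3.11 with all libraries and 0.07 without control 2, the interferon median at 0.93 and 1.21.

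The remaining lists were as follows. Cyclin-dependent kinase inhibitors had 1 gene higher and 4 lower (median -0.14), the NADPH oxidase 2 and 4 (-0.14), retention and trafficking receptors 8 and 5 (0.05), ribosome biogenesis 8 and 5 (0.07), nuclear oxidative phosphorylation 17 and 13 (0.04), hypoxia and glycolysis 5 and 12 (-0.17), and dissociation and stress genes 4 and 10 (-0.34). None of their genes passed in edgeR. Gapdh had 975 and 1272 CPM in adenosine and 987 and 1241 CPM in control, values that interleave.

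The delivered molecule, adenosine, acts through 4 receptors, which were barely seen in members. Adora1 had 0 UMIs in every library, which allows up to 0.598%, 0.628%, 0.571% and 6.12% of members with a UMI. Adora2a was found in 1, 6, 5 and 0 members, a share of at most 1.26%, below the 7.69% to 18.98% of lymphoid-marked cells, a class known to express it. Adora2b was found in 4, 1, 4 and 1 members and Adora3 in 1, 1, 4 and 2. These counts are too few to set a level or a difference by. The enzymes of adenosine handling were better covered. Entpd1 (CD39, which breaks down extracellular ATP) had 75.2 and 47.9 CPM in adenosine and 76.5 and 114 CPM in control, against 133 to 179 CPM in non-dividing cells. Nt5e (CD73, which makes adenosine from AMP) had 2.89 and 0.954 CPM in adenosine and 1.75 and 6.07 CPM in control, against 38.8 to 55.4 CPM in non-dividing cells. Nt5e was found in 1.99%, 1.05%, 1.52% and 8.16% of members, below the 17.4%, 6.69%, 15.4% and 13.5% of lymphoid-marked cells. Ada (adenosine deaminase) ran the other way, with 27.2 and 28.03 CPM in adenosine and 22.7 and 21.2 CPM in control, against 8.35 to 15.6 CPM in non-dividing cells and 0.671 to 1.59 CPM in mature neutrophils. Pnp, the purine nucleoside phosphorylase that follows it, had 113 and 155 CPM in adenosine and 126 and 114 CPM in control, against 37.7 to 69.1 CPM in non-dividing cells. Adk (adenosine kinase) had 37.8 and 40.2 CPM in adenosine and 55.2 and 16.7 CPM in control. Of the 8 tested genes of this list 4 were higher and 4 lower in adenosine (median 0.06), none past the threshold, and Slc29a1, Slc29a3 and Dpp4 stayed at or under 10.7 CPM.

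Whether the change between adenosine and control differed between members and non-dividing cells was tested for 11013 genes with the library as a block. In edgeR 11 genes passed (0.0999%), and without cells that carried another lineage's markers 1 did. That gene was Fabp5, a fatty acid-binding protein, with a difference of -1.94 on the log2 scale (adjusted p = 0.0406, edgeR). With those cells left out, it had 2.40 and 4.41 CPM in adenosine members and 14.03 and 25.6 CPM in control members (10 and 21 against 66 and 16 UMIs), while non-dividing cells had 12.4 and 20.2 CPM in adenosine and 17.4 and 29.6 CPM in control.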

How the data were processed

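Per the submitters' processing notes, the reads were handled with bcl2fastq and Cell Ranger 7.0.0 on mm10; not given in the sources used here are the annotation release and how introns were counted. The deposited files hold raw UMI counts per barcode for 32285 genes in 4 libraries. Barcodes with at least 200 genes and under 10% mitochondrial UMIs were kept, and members were found by the stated rule, with no clustering. No doublets were removed; leaving out the cells with the highest scanpy scores was an alternative. Counts were summed per library and class, and adenosine was compared with control with the library as the unit: edgeR 4.0.16 quasi-likelihood test, filterByExpr, TMM scaling, Benjamini-Hochberg adjustment over all genes tested, threshold 0.05 (R 4.3.3). The standard error is the log2 fold change over the root of F. The difference of the change between members and non-dividing cells was a stage-by-treatment term with the library as a block. Shares carry 95% Wilson intervals and an exact permutation test over libraries (scipy 1.17.1). Ratios between stages are descriptions with a pseudocount of 10 CPM. The limit for a count of 0 is 3 counts. Intervals and limits cover counting error only. DESeq2 1.42.0, other scalings, filters, thresholds and left-out libraries were alternatives. Leaving out cells with 10 or more UMIs of another lineage, and library-size scaling, were chosen after seeing the data. Dendritic and eosinophil markers did not count as another lineage there.

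The members, gene lists and tests were chosen with earlier results of these data known. Named genes were those past the threshold or, where fewer than 6 passed in a direction, the 6 with the lowest unadjusted p with a mean of at least 20 CPM in the higher group; the 12 or 8 with the most extreme stage ratios; and of each list the 4 with the highest level. Gfi1, Myc and Fabp5 were named after their values were seen. Mx1, of the interferon list, had no row. The scripts were tested on simulated data.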

Additional observations from a re-analysis of the deposited data

Results flagged for a closer look

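For 11 genes, the change between adenosine and control differed between dividing pre-neutrophils and non-dividing granule-gene neutrophils in edgeR's test of that difference (log2, dividing minus non-dividing). Without the cells that carried another lineage's markers, 9 of the 11 were tested and none of these 9 passed, Mrc1 and Adgrl2 were not tested, 1 other gene passed and 298 had an unadjusted p under 0.05. Globin genes differed by 3.83 for Hbb-bs (adjusted p = 1.2e-05, edgeR), 4.00 for Hba-a2 (0.021) and 3.49 for Hba-a1 (0.0308). A single member held 1907 of 1981 Hbb-bs UMIs in adenosine 1. Pf4, a platelet chemokine, differed by -4.66 (adjusted p = 3.25e-05, edgeR), and 1 member of control 2 held 75 of its 78 UMIs. Igkc and Ighm, immunoglobulin chains, differed by -3.59 and -2.41 (adjusted p = 0.0001 and 0.000786, edgeR), and 1 member of control 1 held 6051 of 6440 Igkc UMIs. In non-dividing cells Igkc and Ighm were higher in adenosine, with log2 fold changes of 2.26 and 1.21, against -1.44 and -1.21 in members. Tox, a factor of T cell development, differed by -4.73 (adjusted p = 0.0001, edgeR), with 20 of 30 UMIs of control 1 in 1 member. Its log2 fold change was -0.31 in members and 4.22 in non-dividing cells. The latter had 11.9 and 25.4 CPM of Tox in adenosine and 1.18 and 0 CPM in control. Mrc1, the macrophage mannose receptor, differed by -4.91 (adjusted p = 0.044, edgeR), with all 41 UMIs of control 2 in 1 member. Ifitm1, an interferon-induced membrane protein, differed by -1.67 (adjusted p = 0.00224, edgeR), with 110 of 155 UMIs of control 2 in 1 member. Ccl5, a chemokine of T and NK cells, differed by -1.58 (adjusted p = 0.0315, edgeR). It had 6.23 and 293 CPM in adenosine members and 19.8 and 1.52 CPM in control members, while non-dividing cells had 20.9 and 636 CPM in adenosine and 15.0 and 1.52 CPM in control. Adgrl2, an adhesion receptor, differed by -6.57 (adjusted p = 0.0464, edgeR) on 3 and 0 UMIs in adenosine members and 20 and 0 in control members.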

How the results depend on the processing

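The adenosine minus control difference in the share of kept cells was 2.41 percentage points; with 1 library left out it ran from -0.0103 (without control 2) to 4.82, and it was 2.10 to 4.14 under the other settings, at p = 0.667 in the exact permutation test. The difference in the share of granule-gene neutrophils, -0.04, was 0.603 with at least 4 Mki67 and Top2a UMIs, 0.761 with at least 200 granule UMIs per 10000 and 0.357 thinned to 2000 UMIs, and -1.50 to 1.43 with 1 library left out. The count of genes changed in edgeR, 1 with TMM and 1 with RLE scaling, was 35 with library size only, 120 with no filter, 4 in DESeq2, 3 without the highest doublet scores, 0 with at least 4 Mki67 and Top2a UMIs, 0 with at least 200 granule UMIs per 10000, 0 with under 10 primary granule UMIs and 0 without cells of another lineage (136, 159, 144 and 163 genes at an unadjusted p under 0.05), and 2 to 71 with 1 library left out (2 without control 2, 71 without control 1, 40 without adenosine 1, 29 without adenosine 2). A lone library is then assumed to vary like the other group. Genes whose change differed, 11, numbered 7 with RLE, 57 with no filter, 5 in DESeq2, 3 with at least 4 Mki67 and Top2a UMIs, 1 with at least 200 granule UMIs, 6 with under 10 primary granule UMIs, 4 without the highest doublet scores, 1 without cells of another lineage, and 5 to 94 with 1 library left out (94 without control 1).

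With the replicate block the count was 6 genes (Ccl4, Hba-a1, Hba-a2, Hbb-bs, Hbb-bt and Igha), and the interferon median was 0.20. No label says that a replicate number marks a shared animal, batch or day, so the numbers were not taken as pairs. Deviations of same-numbered libraries correlated at r = 0.0919 over 10324 genes. With 2 libraries per group this correlation cannot decide whether they are pairs. The shares have no such fit.

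List medians with 1 library left out ran from -0.12 to 0.11 (G2 and M), -0.51 to 0.18 (kinase inhibitors), -0.22 to 0.0852 (primary granule), -0.33 to 0.17 (secondary granule), -1.17 to -0.19 (tertiary granule and mature), -0.34 to 0.11 (NADPH oxidase), -4.35 to 0.0688 (inflammatory), -0.95 to 1.74 (interferon), -0.12 to 0.21 (ribosome biogenesis), -0.30 to 0.25 (oxidative phosphorylation), -0.51 to 0.14 (glycolysis) and -0.94 to -0.0117 (stress). The S phase and ribosomal protein medians were positive throughout, at 0.13 to 0.53 and 0.08 to 0.34. The NADPH oxidase median was -0.0515 with library size only, and the inflammatory median -1.53 without the highest doublet scores. H2-Q7 ran from -0.0276 (without adenosine 2) to 6.26. For these results the cause was not tested.

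Depth limits control 2 most: 49 members and 659377 UMIs stand behind its values, and a count of 0 there allows up to 6.12% of cells.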
